A study of Mus musculus with 23 samples.

Results

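Chemokines and their receptors were followed across wild-type sciatic nerves (SNs) after crush injury and across SNs of adult mice that had lost the miRNA-processing enzyme Dicer or the microprocessor subunit Dgcr8 in Schwann cells (SCs). The members are the protein-coding mouse genes whose symbols begin with Ccl, Cxcl, Ccr, Cxcr or Ackr followed by a digit, together with Cx3cl1, Cx3cr1 and Xcr1. In the GRCm38 annotation 66 genes met this rule, of 43068 genes listed in the crush libraries and 22880 listed in the mutant libraries. They comprised 43 ligands, 19 receptors and 4 atypical receptors, and 7 of them are copies on scaffolds outside the assembled chromosomes. The members are spread over the genome but cluster by kind, with 14 on chromosome 11, where many CC ligand genes lie, 14 on chromosome 9, mostly receptors, and 10 on chromosome 5, where many CXC ligand genes lie.

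Chemokines are small secreted proteins that guide the movement of leukocytes. Ligands of the CC group act mainly on monocytes, macrophages, eosinophils and lymphocytes, whereas the CXC ligands with an ELR motif act on neutrophils and the interferon-inducible CXC ligands act on activated T cells. Their receptors couple to inhibitory G proteins, and the atypical receptors bind chemokines without such coupling. In a crushed nerve the distal stump degenerates, and chemokines such as Ccl2 are known to draw blood monocytes into it, where the resulting macrophages clear myelin together with SCs.

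The crush libraries came from wild-type C57BL/6J male mice, 2 months old, in 3 groups. These were SNs taken 3 days post-crush (3 dpc, n = 4), the contralateral SNs of operated mice (n = 4), and SNs of mice with surgery but no crush (uncrushed, n = 3). The other experiment used tamoxifen-treated mice at 3 months post-tamoxifen (3 mpT). Dicer iKO mice carried P0-CreERT2 -/+ with Dicer1 flox/flox, Dgcr8 iKO mice carried P0-CreERT2 -/+ with Dgcr8 flox/flox, and each had controls with P0-CreERT2 -/- and the same floxed alleles (n = 3 in each of the 4 groups). All 12 of these mice, controls included, were thus homozygous for a floxed allele and exposed to tamoxifen, injected between 8 and 10 weeks of age. The Cre is driven by a transgenic promoter that is active in myelinating SCs, so the other cells of the nerve keep both alleles intact, and mutant animals were preselected for affected nerves. Each library is bulk RNA of a nerve piece, in which more cells of a type and more RNA per cell cannot be told apart.

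Library totals ranged from 6617716 to 12806066 assigned reads in the crush experiment and from 5594859 to 10143244 in the mutant experiment, so that 3 reads corresponded to 0.234 to 0.453 and 0.296 to 0.536 CPM (counts scaled to a fixed library size). The targeted genes did not mark the mutant libraries at the level of total gene counts, since Dicer1, counted over the whole gene and not over the floxed part alone, measured 81.8 ± 0.415 CPM in Dicer iKO against 88.7 ± 1.66 CPM in controls (SD, n = 3; log2 fold change -0.11, edgeR adjusted p = 0.357). Dgcr8 measured 45.1 ± 7.83 CPM in Dgcr8 iKO against 38.5 ± 3.19 CPM (log2 fold change 0.22, edgeR adjusted p = 0.233). By quantitative PCR, in contrast, the paper reports lower Dicer mRNA in Dicer iKO and lower Dgcr8 mRNA in Dgcr8 iKO than in controls. It also reports lower levels of an abundant miRNA in both mutants. SC markers (6 genes) summed to 30972 to 42519 CPM in uncrushed and contralateral SNs and to 1826 to 2713 CPM in crushed SNs. They summed to 17440 to 20997 CPM in Dicer iKO against 23161.5 to 37195 CPM in its controls, where 0 of 6 fell. In Dgcr8 iKO they summed to 11377 to 21201 CPM against 32326 to 35003 CPM, and 3 of 6 fell. Markers of monocytes and macrophages (10 genes, none at 0 in any group) summed to 163 to 188 CPM in uncrushed, 116 to 221 CPM in contralateral and 827 to 1844 CPM in crushed SNs. Their sum was 3775 to 6694 CPM in Dicer iKO against 330 to 1078 CPM in its controls, and 2483 to 5830 CPM in Dgcr8 iKO against 329 to 381 CPM. Fibroblast markers (4 genes) summed to 2791 to 3280.0 CPM in uncrushed, 2397 to 3251 CPM in contralateral and 1793 to 2275 CPM in crushed SNs, to 3781 to 11334 CPM in Dicer controls against 12094 to 13176 CPM in Dicer iKO, and to 4113 to 5258 CPM in Dgcr8 controls against 8725 to 11229 CPM in Dgcr8 iKO. Mast cell markers (4 genes) summed to 5.88 to 13.4 CPM in uncrushed, 4.16 to 26.6 CPM in contralateral and 4.41 to 9.89 CPM in crushed SNs. Crushed against contralateral SNs, 2 of 3 tested fell, and against uncrushed SNs the 1 tested was not called. The mast cell sums were 31.4 to 151.8 CPM in Dicer controls against 191 to 249.6 CPM in Dicer iKO. They were 13.9 to 42.7 CPM in Dgcr8 controls against 71.5 to 103 CPM in Dgcr8 iKO, where 3 of 4 rose. Adipocyte markers (3 genes) summed to 0.376 to 1.54 CPM in uncrushed, 0.301 to 1.04 CPM in contralateral and 1.13 to 8.26 CPM in crushed SNs. The 1 tested rose against both. The adipocyte sums were 2.59 to 30.7 CPM in Dicer controls against 17.4 to 24.1 CPM in Dicer iKO. They were 0.408 to 2.12 CPM in Dgcr8 controls against 15.0 to 33.3 CPM in Dgcr8 iKO. Muscle markers (3 genes) reached at most 14.5 CPM in any library. The Dicer controls spread widely, replicate 1 holding the highest macrophage marker sum and replicate 3 the lowest.

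**Figure D1:**
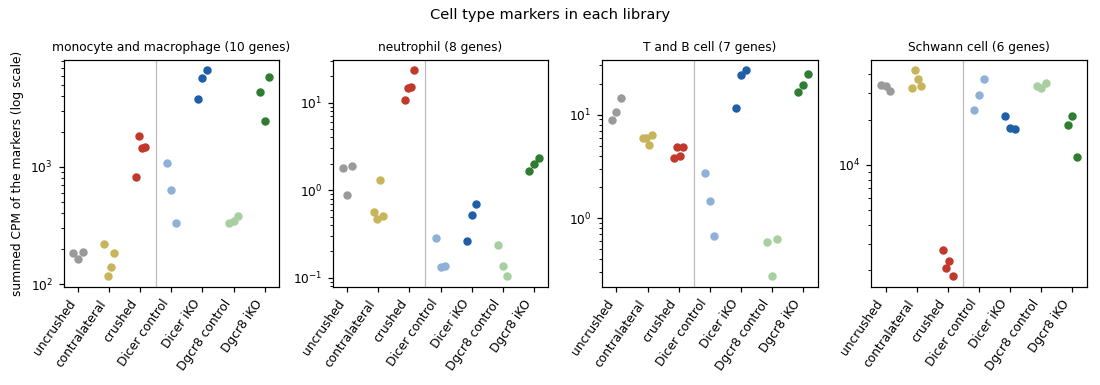
Summed CPM (log axis) of fixed cell type marker genes in each library, one point per library, for the 7 groups; the grey line parts the crush from the mutant experiment, which used different library kits. Macrophage markers are high in crushed and mutant SNs. Within the crush experiment, crushed SNs have the highest neutrophil marker sum (10.7 to 23.5 CPM, most of it Retnlg) and the lowest SC marker sum. Within the mutant experiment, T and B cell markers are higher in mutant SNs (11.6 to 27.0 CPM) than in their controls.

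A promoter of RefSeq, 250 bases before to 50 after the start of transcription in GRCm38.p6, was available for 45 of the 66 members and for 21 of the 28 that changed in at least 1 comparison. Those of Cxcl14, Cxcl10 and Ccl8 are shown because Cxcl14 had the largest fitted rise after crush, Cxcl10 had a large fitted rise in both mutants, and Ccl8 was nearly silent in control nerves of the mutant experiment. Capitals mark matches on either strand to an AP-1 motif (TGANTCA), an interferon response motif (GAAA, any 2 bases and again GAAA) or the NF-kB consensus, which can overlap one another. Cxcl14 (chr13:56296502-56296801, minus strand), Cxcl10 (chr5:92348840-92349139, minus strand) and Ccl8 (chr11:82114935-82115234, plus strand) read 5′ to 3′ as follows.
Cxcl14: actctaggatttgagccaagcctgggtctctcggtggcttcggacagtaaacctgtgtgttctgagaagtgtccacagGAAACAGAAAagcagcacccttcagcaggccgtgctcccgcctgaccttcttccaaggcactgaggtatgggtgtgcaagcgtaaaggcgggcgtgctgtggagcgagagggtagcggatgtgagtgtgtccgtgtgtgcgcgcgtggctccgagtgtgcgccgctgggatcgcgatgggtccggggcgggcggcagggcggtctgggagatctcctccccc
Cxcl10: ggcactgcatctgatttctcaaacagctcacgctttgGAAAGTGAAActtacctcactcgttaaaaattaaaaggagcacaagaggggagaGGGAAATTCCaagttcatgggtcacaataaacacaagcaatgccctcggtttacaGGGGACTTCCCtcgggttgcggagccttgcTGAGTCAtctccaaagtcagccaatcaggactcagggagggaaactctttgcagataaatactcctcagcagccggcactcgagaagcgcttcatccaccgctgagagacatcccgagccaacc
Ccl8: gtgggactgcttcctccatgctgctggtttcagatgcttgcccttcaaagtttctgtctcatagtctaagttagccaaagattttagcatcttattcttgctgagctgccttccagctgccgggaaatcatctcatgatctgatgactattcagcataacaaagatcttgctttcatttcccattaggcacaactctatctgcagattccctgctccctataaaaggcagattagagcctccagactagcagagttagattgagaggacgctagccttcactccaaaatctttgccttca
The interferon response motif stood 213 bases upstream of the start in Cxcl10 and 172 bases upstream in Cxcl14, and the Ccl8 window held none of the 3 motifs. Over all 32851 promoters of this length, 3.44% held the interferon response motif, 7.81% the AP-1 motif and 8.46% the NF-kB consensus. Among the 52 promoters of the members, 3, 10 and 12 held them, and Cxcl10 was among the members in all 3 counts. These matches describe the letters of the windows and do not show binding.

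In uncrushed SNs the family was led by Ccl11, the eotaxin that acts on Ccr3. On the length-scaled FPKM measure its level was 66.3 ± 3.38 (SD, n = 3), followed by Ccl27a, a ligand of Ccr10 best known from skin, at 17.3 ± 8.92 FPKM, and by Ackr1, the atypical receptor of venular endothelium, at 16.6 ± 1.59 FPKM. Cxcl12, the ligand of Cxcr4 and Ackr3, came next at 15.7 ± 3.22 FPKM. Ccl27a, Ackr1 and Cxcl12 lay within 1 SD of one another, whereas Ccl11 lay far above them. These leading members were also high in the mutant experiment's controls, where Ccl11 was first at 125 ± 51.2 FPKM in Dicer controls and 66.0 ± 16.5 FPKM in Dgcr8 controls, followed in both by Cxcl12 and Ccl27a, in either order.

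The order changed in crushed SNs, where Ccl6 (213 ± 58.5 FPKM) and Ccl11 (204 ± 58.1 FPKM) led without a difference beyond their spread, ahead of Ccl9 at 125 ± 30.6 and Ccl2 at 93.7 ± 12.6 FPKM. In Dicer iKO the leading members were Ccl11 (200.5 ± 22.01 FPKM), Cxcr4 (43.4 ± 8.39 FPKM) and Ccl2 (34.8 ± 2.13 FPKM), and in Dgcr8 iKO they were Ccl11 (149.8 ± 20.02 FPKM), Ccl2 (77.7 ± 16.6 FPKM) and Ccl8 (48.1 ± 28.6 FPKM). Ccl11 was thus among the leading pair in these 4 groups, and the members behind it were not the same in injured and mutant nerves.

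**Figure D2:**
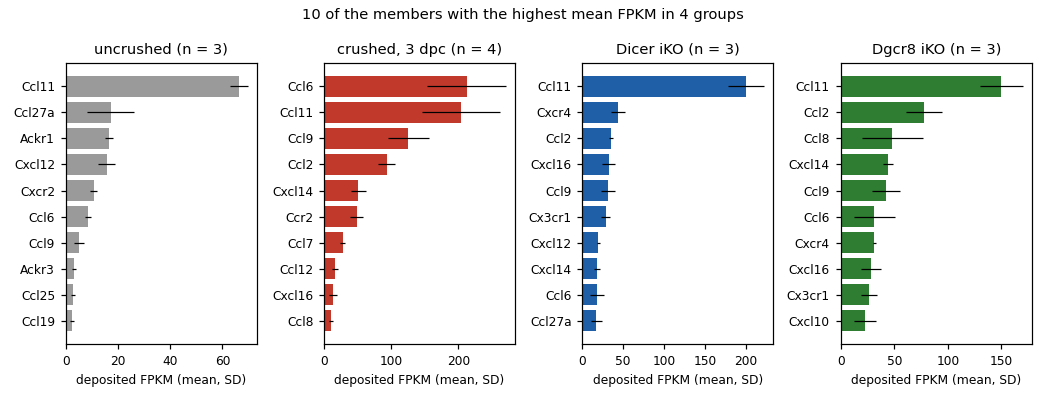
Mean deposited FPKM (bars start at 0, whiskers are SD) of 10 of the members with the highest mean in uncrushed, crushed, Dicer iKO and Dgcr8 iKO SNs; the horizontal scales differ. Ccl11 leads in uncrushed SNs at 66.3 FPKM and in both mutants, and Ccl6 stands beside it in crushed SNs at 213 FPKM.

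To ask how the family responds to injury, crushed SNs were compared with uncrushed SNs, with calls at a fold change of 2 or more and an adjusted p of 0.05 or less over all genes tested. Of the 31 members that passed the filter on low counts, 19 rose and 6 fell, against 15.3% of all 17433 genes tested that rose and 21.1% that fell. Among tested members the median log2 fold change was 2.16, beside -0.03 over all genes. Against contralateral SNs, 26 members were tested, 18 rose and 3 fell (14.6% and 13.6% of 16667 genes), with a median log2 fold change of 2.90 beside -0.06. The shares of tested members that fell, 19.4% against uncrushed and 11.5% against contralateral SNs, lay near those of all genes. The counts of falls are thus no result about the family. Both comparisons use the same 4 crushed libraries, and all 18 members that rose against contralateral SNs were among the 19 that rose against uncrushed SNs. Without uncrushed replicate 3 the number that fell against uncrushed SNs was 3.

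The monocyte chemoattractant proteins rose together, 4 of 4 members in both comparisons. Ccl2, the main ligand of Ccr2, measured 52.8, 66.5, 61.2 and 69.8 CPM in the crushed SNs, 1.44, 2.38 and 0.684 CPM in the uncrushed and 3.58, 0.628, 2.11 and 2.97 CPM in the contralateral SNs. Its log2 fold change was 5.42 ± 0.23 (SE; edgeR adjusted p = 1.68e-09) against uncrushed and 4.81 ± 0.24 (edgeR adjusted p = 3.78e-10) against contralateral SNs. Every crushed SN lay far above every other nerve of the experiment for this gene. Ccl7, a ligand of the same receptor, measured 14.6, 20.6, 18.2 and 18.6 CPM in crushed SNs and 0.876 to 1.196 CPM in uncrushed SNs (log2 fold change 4.14 ± 0.21, edgeR adjusted p = 6.46e-09). Ccl12 was far less abundant, with 4.09 to 8.10 CPM in crushed and 0.171 to 1.08 CPM in uncrushed SNs (log2 fold change 3.08 ± 0.39, edgeR adjusted p = 2.39e-05). Ccl8 measured 2.57 to 4.64 CPM in crushed and 0.125 to 0.360 CPM in uncrushed SNs (log2 fold change 3.84 ± 0.42, edgeR adjusted p = 6.15e-06). Neither gene overlapped between the groups. An antisense protein-coding gene overlaps Ccl2 in the annotation, and whether reads were counted by strand is not given in the sources used here.

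Among the inflammatory CC ligands of Ccr1, Ccr3 and related receptors, 3 of 4 tested members rose against uncrushed SNs. Ccl6, a Ccr1 ligand of myeloid cells, measured 165, 247, 250.1 and 327 CPM in crushed SNs and 9.80, 11.02 and 11.6 CPM in uncrushed SNs (log2 fold change 4.63 ± 0.23, edgeR adjusted p = 7.01e-09). Ccl9, a second ligand of Ccr1, measured 96.8, 122, 139 and 163 CPM against 10.3, 7.14 and 8.37 CPM (log2 fold change 4.005 ± 0.21, edgeR adjusted p = 1.02e-08). The smallest rise in this group was that of Ccl11, the most abundant member before injury, with 114, 205, 186 and 232 CPM against 74.8, 65.1 and 70.1 CPM (log2 fold change 1.501 ± 0.20, edgeR adjusted p = 3.62e-05). For all 3 genes the crushed and the uncrushed SNs did not overlap. Ccl24, the other eotaxin tested, had a log2 fold change of 0.80 ± 0.39 (edgeR adjusted p = 0.086).

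Receptors of monocytes, macrophages and granulocytes moved in the same direction as these ligands, 5 of 6 tested members rising in both comparisons. Ccr2, which lets inflammatory monocytes follow Ccl2, measured 118, 179, 154 and 177 CPM in crushed SNs against 4.14, 8.01 and 9.06 CPM in uncrushed SNs (log2 fold change 4.64 ± 0.24, edgeR adjusted p = 8.74e-09). Ccr1 measured 16.5, 25.6, 22.4 and 27.5 CPM against 0.180, 0.626 and 1.54 CPM (log2 fold change 5.22 ± 0.37, edgeR adjusted p = 1.33e-07). The rise was smaller for the eotaxin receptor Ccr3 (9.06 to 21.1 against 3.13 to 3.59 CPM, log2 fold change 2.16 ± 0.29, edgeR adjusted p = 3.92e-05). Cx3cr1, the fractalkine receptor of resident macrophages and patrolling monocytes, measured 15.4, 35.5, 32.1 and 23.9 CPM against 2.79, 3.00 and 4.10 CPM (log2 fold change 3.15 ± 0.29, edgeR adjusted p = 1.48e-06). None of these 4 receptors overlapped between crushed and uncrushed SNs. All 10 macrophage markers rose in the same 2 comparisons (median log2 fold change 3.09 against uncrushed and 3.11 against contralateral SNs), and their part in the rise of the members was not tested.

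Cxcl14, a CXC ligand made by many tissues outside the immune system, had the largest fitted change of the family. It measured 108, 80.8, 70.1 and 66.8 CPM in crushed SNs, 1.62, 1.38 and 1.03 CPM in uncrushed and 0.660, 1.02, 1.30 and 1.54 CPM in contralateral SNs. The log2 fold change was 5.96 ± 0.25 against uncrushed (edgeR adjusted p = 1.44e-09) and 6.19 ± 0.22 against contralateral SNs (edgeR adjusted p = 9.72e-12). The groups stood far apart for this gene. A pair of ligands made as membrane proteins also rose, namely Cxcl16, the ligand of Cxcr6 (8.66, 29.2, 18.0 and 17.9 against 2.79, 2.88 and 3.93 CPM, log2 fold change 2.66 ± 0.37, edgeR adjusted p = 4.89e-05), and Cx3cl1, or fractalkine (6.33 to 11.1 against 1.71 to 2.70 CPM, log2 fold change 1.95 ± 0.30, edgeR adjusted p = 0.000118). Cxcl16 overlaps a gene on the other strand.

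The neutrophil-attracting ELR ligands were scarce even after injury. Cxcl1 reached 1.36, 2.68, 2.20 and 1.98 CPM in crushed SNs from 0.0899, 0 and 0.513 CPM in uncrushed SNs (log2 fold change 3.65 ± 0.62, edgeR adjusted p = 0.000244), and Cxcl5 reached 2.41, 2.85, 2.38 and 3.77 CPM from 0, 0.501 and 0.171 CPM (log2 fold change 3.83 ± 0.58, edgeR adjusted p = 9.88e-05). Both genes lay near the 3-read limit in uncrushed SNs, so their fold changes are imprecise, and the other 3 ELR ligands did not reach the count filter in any comparison. Cxcr2, the neutrophil receptor of these ligands, went the other way. It measured 17.4, 14.5, 14.8 and 15.4 CPM in crushed SNs, below the 34.9, 27.9 and 39.5 CPM of uncrushed SNs (log2 fold change -1.02 ± 0.13, edgeR adjusted p = 1.94e-05), and 21.6, 19.1, 22.4 and 28.1 CPM in contralateral SNs (log2 fold change -0.53 ± 0.12, edgeR adjusted p = 0.00114, short of the fold limit). The fall against uncrushed SNs sits at that limit, and it dropped below it without crushed replicate 2 (log2 fold change -0.997), without uncrushed replicate 1 (-0.95) or without uncrushed replicate 3 (-0.92). Neutrophil markers (8 genes) summed to 0.876 to 1.88 CPM in uncrushed and 10.7 to 23.5 CPM in crushed SNs, but 1 gene, Retnlg, carried most of the sum in crushed SNs, at a mean of 14.3 CPM against 0.0600 CPM. Of the other 7, S100a8 and S100a9 had higher means in crushed than in uncrushed SNs, Mpo had nearly the same mean, Ly6g, Elane, Ngp and Camp had lower means, and none passed the count filter. The part of other cells in the Cxcr2 reads was not tested. All Cxcr2 reads were assigned to 1 of its 2 annotated transcripts listed, ENSMUST00000106899, in all 7 groups.

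Cxcr4 and its ligand Cxcl12 moved in opposite directions. Cxcr4 measured 2.33, 12.9, 6.05 and 5.84 CPM in crushed SNs against 0.989, 1.002 and 1.196 CPM in uncrushed SNs (log2 fold change 2.78 ± 0.54, edgeR adjusted p = 0.000739). Cxcl12 fell to 24.9, 23.9, 25.9 and 24.4 CPM from 71.4, 52.7 and 43.4 CPM (log2 fold change -1.08 ± 0.15, edgeR adjusted p = 5.19e-05) and from 53.4, 58.8, 70.5 and 61.3 CPM in contralateral SNs (log2 fold change -1.28 ± 0.09, edgeR adjusted p = 1.45e-08). Crushed replicate 1 was the lowest for Cxcr4, but neither gene overlapped with the uncrushed SNs. Without uncrushed replicate 1 the fall of Cxcl12 against uncrushed SNs was -0.80 on the log2 scale, short of the fold limit. The longest listed Cxcl12 transcript, ENSMUST00000073043 (5627 nt), held a median of 35.05% of the gene's FPKM in uncrushed, 44.6% in contralateral and 30.02% in crushed SNs, and ENSMUST00000112866 (1878 nt) held 53.9%, 44.6% and 62.4%. These shares are estimates from reads that the transcripts have in common, and their ranges across libraries overlapped between crushed and uncrushed SNs. Ackr3, the scavenging receptor of Cxcl12, was the member closest to no change (7.86, 8.54, 6.23 and 6.31 against 9.62, 8.14 and 8.03 CPM, log2 fold change -0.15 ± 0.17, edgeR adjusted p = 0.425).

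Ackr1 and Ccl27a, abundant before injury, fell in both comparisons. Ackr1 measured 5.45, 4.56, 5.04 and 4.33 CPM in crushed SNs against 18.2, 19.9 and 18.1 CPM in uncrushed SNs (log2 fold change -1.84 ± 0.13, edgeR adjusted p = 1.78e-07) and 15.5 to 25.9 CPM in contralateral SNs (log2 fold change -2.10 ± 0.17, edgeR adjusted p = 5.66e-08). Ccl27a measured 2.004, 1.22, 1.92 and 1.32 CPM against 11.2, 6.26 and 5.13 CPM (log2 fold change -2.15 ± 0.31, edgeR adjusted p = 6.29e-05). For both genes no crushed library reached the level of a control library. Markers of endothelial cells, the cells in which Ackr1 is best known, moved in both directions. Cdh5 and Tek rose in both comparisons, whereas Cldn5 had log2 fold changes of -0.62 against uncrushed (edgeR adjusted p = 0.0434) and -0.91 against contralateral SNs (edgeR adjusted p = 2.20e-05), and Kdr had -0.55 against contralateral SNs (edgeR adjusted p = 0.000225), all short of the fold limit. Their part in the fall of Ackr1 was not tested. Ackr1 and Ccl27a each overlap a neighbouring gene in the annotation.

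Some members of lymphocyte traffic were measured at low levels, whereas others, such as Cxcl16 and Ccl27a described above, were more abundant. Cxcr5, a receptor of B cells, measured 0.241, 0.163, 0.0916 and 1.04 CPM in crushed SNs against 1.80, 0.626 and 1.196 CPM (log2 fold change -1.61 ± 0.66, edgeR adjusted p = 0.0465), and the groups overlapped. Ccl19, a ligand of Ccr7, measured 0.401 to 0.813 CPM against 1.25 to 2.39 CPM (log2 fold change -1.31 ± 0.39, edgeR adjusted p = 0.0108). Contralateral SNs were low as well, at 0.566, 0.157, 0.401 and 0.410 CPM for Cxcr5 and 0.549 to 1.23 CPM for Ccl19. Both genes thus overlapped between crushed and contralateral SNs, and neither was called to fall against contralateral SNs. Cxcl10, the interferon-inducible ligand of Cxcr3, rose against uncrushed SNs only to 1.12, 1.46, 1.10 and 0.565 CPM from 0.0899, 0.626 and 0.684 CPM (log2 fold change 1.45 ± 0.56, edgeR adjusted p = 0.0371). These 3 calls did not hold under every choice of libraries. The largest adjusted p on leaving out a library was 0.278 for Cxcr5 without uncrushed replicate 1, 0.0657 for Ccl19 without uncrushed replicate 3 and 0.166 for Cxcl10 without uncrushed replicate 1 (edgeR). That of Cxcr5 was also lost without crushed replicate 1, 2 or 3 or uncrushed replicate 3 (edgeR adjusted p from 0.0834 to 0.104). Ccr9 (log2 fold change -0.39 ± 0.42, edgeR adjusted p = 0.422) and its ligand Ccl25 (0.48 ± 0.25, edgeR adjusted p = 0.110) were, with Ackr3, the members closest to no change. T and B cell markers (7 genes) summed to 3.77 to 4.90 CPM in crushed, 5.12 to 6.36 CPM in contralateral and 8.90 to 14.5 CPM in uncrushed SNs.

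Uncrushed and contralateral SNs were compared to ask whether an injury on the other side changes the family. None of the 22 members tested was called by edgeR, and the share called was 0 of all 17722 genes (0%). An unadjusted p under 0.05 (edgeR) was reached by 4 of the 22 members and by 3165 of the 17722 genes. These shares lay near each other, so the count is no result about the family. DESeq2 also called none of these members. Members had a median log2 fold change of -0.15, beside -0.02 over all genes. The smallest adjusted p belonged to Cxcr2 (log2 fold change -0.58 ± 0.14, edgeR adjusted p = 0.130), followed by Xcr1, a receptor of dendritic cells that present antigen to cytotoxic T cells (-0.71 ± 0.22, edgeR adjusted p = 0.155).

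**Figure D3:**
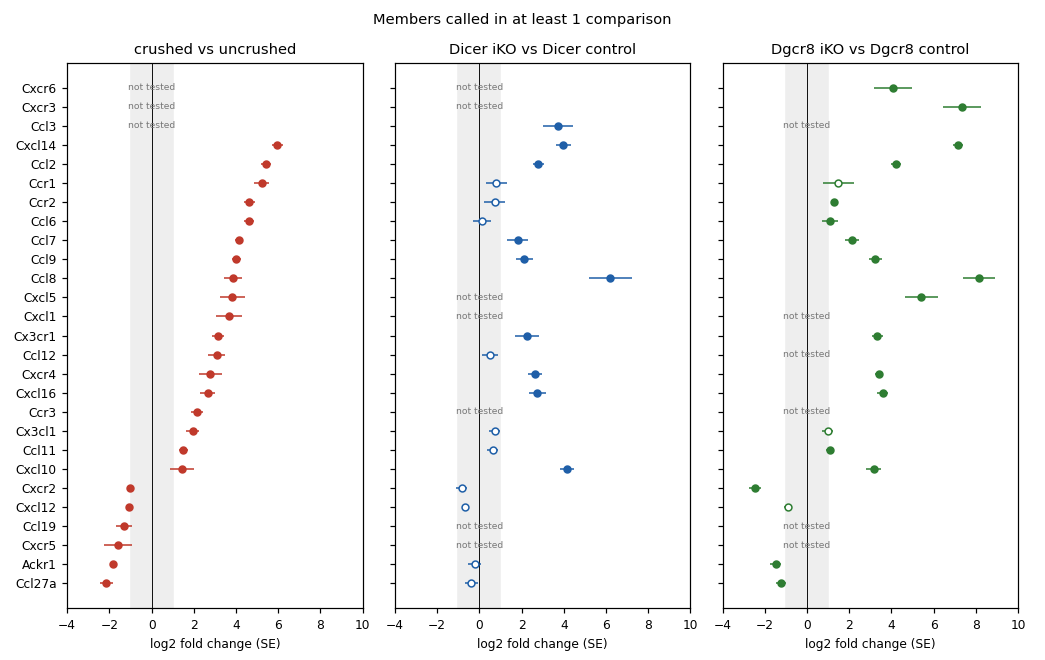
Log2 fold change (points, whiskers are SE) of 27 members called in at least 1 comparison, for crushed against uncrushed, Dicer iKO against control and Dgcr8 iKO against control; filled points are called, open points are tested but not called, and grey bands span a fold change under 2. Most points in the crush panel lie between 1.45 and 5.96 on the positive side, and the values of Ccl3, Ccl8, Cxcl5 and Cxcr3 in the mutants rest on 3 or fewer reads in the control group.

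To ask whether the family responds to miRNA loss in adult SCs, each mutant was compared with its own controls. In Dicer iKO, 23 members were tested, 10 rose and 0 fell, against 7.37% of 13045 genes that rose and 1.64% that fell. At an unadjusted p under 0.05 (edgeR), 14 of the 23 members changed, beside 4734 of the 13045 genes. DESeq2 also found no member that fell. Without Dicer iKO replicate 3 the number that rose was 6, and without Dicer iKO replicate 1 the number that fell was 1. In Dgcr8 iKO, 24 members were tested, 16 rose and 3 fell, against 13.4% and 6.99% of 13252 genes. Among tested members the median log2 fold change was 0.80 in Dicer iKO and 2.21 in Dgcr8 iKO, beside -0.01 over all genes in each. The members that rose in both mutants were 9 in number, namely Ccl2, Ccl7, Ccl8, Ccl9, Cxcl10, Cxcl14, Cxcl16, Cx3cr1 and Cxcr4. The share of all genes that rose in both mutants was not counted, so this overlap is no result about the family. The 2 comparisons share no libraries.

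Monocyte chemoattractant proteins again stood among the members that rose, 3 of 4 tested in Dicer iKO and 3 of 3 in Dgcr8 iKO. Ccl2 measured 21.7, 23.3 and 22.01 CPM in Dicer iKO against 4.60, 2.91 and 2.16 CPM (log2 fold change 2.79 ± 0.25, edgeR adjusted p = 0.00167) and 57.7, 37.7 and 46.8 CPM in Dgcr8 iKO against 1.89, 2.86 and 2.90 CPM (log2 fold change 4.20 ± 0.23, edgeR adjusted p = 7.71e-07). Ccl7 measured 14.0, 10.01 and 7.61 against 4.60, 3.57 and 0.811 CPM in the Dicer comparison (log2 fold change 1.82 ± 0.50, edgeR adjusted p = 0.0394) and 14.98, 9.63 and 9.10 against 2.01, 1.90 and 3.63 CPM in the Dgcr8 comparison (log2 fold change 2.13 ± 0.31, edgeR adjusted p = 0.000284). In no case did mutant and control libraries overlap. The call of Ccl7 in Dicer iKO was lost without Dicer control replicate 2 or without any one of the Dicer iKO replicates (edgeR adjusted p from 0.0895 to 0.111). Ccl8 had a single read over the 3 controls of each mutant. It measured 1.73, 4.31 and 7.89 CPM in Dicer iKO, a ratio of 101 to controls with an exact 95% counting interval of 17.8 to 4048 (edgeR adjusted p = 0.00713), and 8.61, 11.5 and 25.3 CPM in Dgcr8 iKO, a ratio of 380.2 with an interval of 67.9 to 15054 (edgeR adjusted p = 1.70e-05). These intervals cover counting error only. Ccl12 was measured at 1.23 ± 0.260 CPM in Dicer controls and 1.73 ± 0.342 CPM in Dicer iKO (SD, n = 3; edgeR adjusted p = 0.379).

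Cxcl14 rose in both mutants, to 23.7, 28.3 and 35.2 CPM from 2.15, 2.64 and 0.676 CPM in the Dicer comparison (log2 fold change 3.98 ± 0.37, edgeR adjusted p = 0.00167) and to 73.1, 62.1 and 73.0 CPM from 0.236, 0.816 and 0.415 CPM in the Dgcr8 comparison (log2 fold change 7.15 ± 0.25, edgeR adjusted p = 1.45e-07). Cxcl10 rose to 12.9, 14.0 and 8.58 CPM from 0.575, 0.793 and 0.541 CPM in Dicer iKO (log2 fold change 4.17 ± 0.33, edgeR adjusted p = 0.00130) and to 18.2, 27.9 and 10.8 CPM from 1.89, 2.59 and 1.97 CPM in Dgcr8 iKO (log2 fold change 3.15 ± 0.35, edgeR adjusted p = 4.82e-05). Both ligands had mutant libraries that all lay above their controls. The part of the interferon response motif in their promoters was not tested. Cxcl10 overlaps Art3, a gene on the other strand.

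Cxcr4 was the receptor with the highest FPKM in both mutants. It measured 38.1, 53.8 and 50.7 CPM in Dicer iKO against 10.49, 8.59 and 3.92 CPM (log2 fold change 2.63 ± 0.31, edgeR adjusted p = 0.00288) and 38.3, 32.9 and 37.6 CPM in Dgcr8 iKO against 3.66, 2.99 and 3.63 CPM (log2 fold change 3.39 ± 0.17, edgeR adjusted p = 5.08e-07). Its ligand Cxcl12 had lower values in each mutant, 50.8, 62.8 and 57.4 against 111, 83.0 and 80.4 CPM in the Dicer comparison (log2 fold change -0.68 ± 0.15, edgeR adjusted p = 0.0196) and 63.5, 60.6 and 35.7 against 99.3 to 102 CPM in the Dgcr8 comparison (log2 fold change -0.92 ± 0.19, edgeR adjusted p = 0.00227). The groups did not overlap, but neither change reached a fold of 2, so neither was called. Cxcl16 measured 37.5, 51.2 and 61.2 CPM in Dicer iKO against 12.6, 6.08 and 3.65 CPM (log2 fold change 2.75 ± 0.40, edgeR adjusted p = 0.00492) and 41.8, 32.9 and 59.7 CPM in Dgcr8 iKO against 2.83, 4.35 and 3.94 CPM (log2 fold change 3.59 ± 0.26, edgeR adjusted p = 3.31e-06).

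Among receptors of myeloid cells, Cx3cr1 rose in both mutants, whereas the monocyte receptor Ccr2 was called in Dgcr8 iKO alone. Cx3cr1 measured 69.1, 89.5 and 104 CPM in Dicer iKO against 35.9, 14.9 and 4.59 CPM (log2 fold change 2.25 ± 0.57, edgeR adjusted p = 0.0295), and 81.5, 61.0 and 102 CPM in Dgcr8 iKO against 8.38, 4.63 and 10.9 CPM (log2 fold change 3.33 ± 0.27, edgeR adjusted p = 7.23e-06). The Dicer controls spread widely for this gene, in the same order as their macrophage marker sums. The edgeR adjusted p in Dicer iKO was 0.113 without Dicer control replicate 2, 0.0939 without Dicer iKO replicate 2 and 0.110 without Dicer iKO replicate 3. Ccr2 measured 21.3, 68.5 and 56.3 CPM in Dicer iKO against 48.4, 23.4 and 15.9 CPM (log2 fold change 0.74 ± 0.50, edgeR adjusted p = 0.326), with overlap, and 63.6, 48.6 and 76.4 CPM in Dgcr8 iKO against 24.0, 26.3 and 26.7 CPM (log2 fold change 1.29 ± 0.17, edgeR adjusted p = 0.000120). Macrophage markers rose for 7 of 10 genes in Dicer iKO and 8 of 10 in Dgcr8 iKO, and their part in these results was not tested.

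The ligands Ccl9, Ccl6 and Ccl11 differed in how far they moved. Ccl9 measured 60.3, 103 and 94.96 CPM in Dicer iKO against 28.3, 22.2 and 8.65 CPM (log2 fold change 2.13 ± 0.39, edgeR adjusted p = 0.0109) and 125, 75.3 and 141 CPM in Dgcr8 iKO against 8.73, 18.5 and 9.33 CPM (log2 fold change 3.24 ± 0.30, edgeR adjusted p = 1.51e-05). Ccl6, the leading ligand of crushed SNs, measured 7.45, 20.5 and 20.6 CPM in Dicer iKO against 17.1, 19.0 and 8.24 CPM in its controls, and the groups overlapped (log2 fold change 0.13 ± 0.43, edgeR adjusted p = 0.853). In Dgcr8 iKO it measured 21.1, 13.4 and 45.6 CPM against 8.14, 16.7 and 13.0 CPM (log2 fold change 1.08 ± 0.39, edgeR adjusted p = 0.0443), a call that was lost without Dgcr8 iKO replicate 3 (log2 fold change 0.45, edgeR adjusted p = 0.222) and without any one of the Dgcr8 control replicates (edgeR adjusted p from 0.0569 to 0.162). With all libraries it was also lost by DESeq2 (adjusted p = 0.131) and with all groups in one fit (edgeR adjusted p = 0.0787). Ccl11 measured 161, 193 and 178 CPM in Dicer iKO against 155, 125 and 64.9 CPM (log2 fold change 0.63 ± 0.28, edgeR adjusted p = 0.148) and 135, 111 and 142 CPM in Dgcr8 iKO against 54.1, 52.4 and 77.8 CPM (log2 fold change 1.07 ± 0.17, edgeR adjusted p = 0.000477). The change of Ccl11 in Dgcr8 iKO was just under a fold of 2 without Dgcr8 control replicate 1 or 2 or Dgcr8 iKO replicate 3, and Ccl9 in Dicer iKO had an edgeR adjusted p of 0.0519 without Dicer iKO replicate 2 and 0.0547 without replicate 3. Ccl3, a ligand of Ccr1, was called in Dicer iKO at 1.60, 1.73 and 2.77 CPM against 3 reads in its controls together (ratio 14.9, counting interval 4.78 to 75.4, edgeR adjusted p = 0.0113), and its adjusted p without Dicer iKO replicate 3 was 0.0600 (edgeR). In Dgcr8 iKO, where Ccl3 was not tested, it measured 1.89, 1.05 and 4.20 CPM against 0.236, 0.272 and 0.104 CPM in the controls.

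Receptors of activated T cells rose in Dgcr8 iKO. Cxcr3, the receptor of Cxcl10, measured 2.71, 2.19 and 1.98 CPM with no read in the 3 controls, which makes it at least 19.4-fold higher when the control group is set at 3 reads (edgeR adjusted p = 0.000226). Cxcr6, the receptor of Cxcl16, measured 2.12, 6.68 and 1.52 CPM against 0, 0 and 0.518 CPM (log2 fold change 4.08 ± 0.90, edgeR adjusted p = 0.00364). Replicate 2 was the highest for Cxcr6, and also for 3 members below the count filter, with 6.68 CPM of Ccl5, 6.87 CPM of Cxcl9 and 3.24 CPM of the naive T cell and dendritic cell receptor Ccr7, picked out after their values were seen. T and B cell markers (7 genes) summed to 16.4 to 24.8 CPM in Dgcr8 iKO against 0.272 to 0.622 CPM, where Cd3e and Cd3g were at 0, and their part in the rise of these receptors was not tested. In Dicer iKO the same markers summed to 11.6 to 27.0 CPM against 0.676 to 2.73 CPM, and Cxcr3 and Cxcr6 did not pass the count filter. Their reads were nonetheless more numerous there too, 26 against 3 for Cxcr3 (ratio 9.25, counting interval 2.84 to 47.8) and 13 against 2 for Cxcr6 (ratio 6.94, counting interval 1.57 to 63.3), with no test. The ELR ligand Cxcl5 was called in Dgcr8 iKO at 2.59, 1.53 and 2.68 CPM against a single read in the controls (ratio 56.4, counting interval 9.76 to 2265, edgeR adjusted p = 0.000244), and in Dicer iKO, where it was not tested, it had 18 reads against 0, at least 6.41-fold higher when the controls are set at 3 reads.

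The members that fell did so in Dgcr8 iKO. Cxcr2 measured 6.96, 8.87 and 8.75 CPM against 50.2, 61.2 and 25.3 CPM (log2 fold change -2.46 ± 0.29, edgeR adjusted p = 6.20e-05). Ackr1 measured 6.72, 9.63 and 7.70 CPM against 19.8, 32.7 and 16.1 CPM (log2 fold change -1.49 ± 0.26, edgeR adjusted p = 0.000830), and Ccl27a measured 4.72, 5.06 and 2.80 CPM against 10.6, 10.3 and 9.02 CPM (log2 fold change -1.24 ± 0.25, edgeR adjusted p = 0.00202). No mutant library reached a control library for any of the 3 genes. In Dicer iKO the log2 fold changes were -0.84 ± 0.26 for Cxcr2 (edgeR adjusted p = 0.0571), -0.21 ± 0.30 for Ackr1 (edgeR adjusted p = 0.648) and -0.38 ± 0.30 for Ccl27a (edgeR adjusted p = 0.397), and none was called. Neutrophil markers summed to 0.104 to 0.236 CPM in Dgcr8 controls, where S100a9, Retnlg, Ly6g, Elane, Ngp and Camp were at 0. Their sum was 1.65 to 2.33 CPM in Dgcr8 iKO, where Retnlg made up most of it (mean 1.61 CPM). In the Dicer comparison the neutrophil marker sums were 0.132 to 0.287 CPM in controls and 0.266 to 0.692 CPM in Dicer iKO. Which cells gave the Cxcr2 reads was not tested. Endothelial markers summed to 246 to 279 CPM in Dgcr8 controls and 158 to 219 CPM in Dgcr8 iKO, with 1 of 5 falling, and to 230.4 to 249 CPM and 157 to 172 CPM in the Dicer comparison, with none falling. Their part in the fall of Ackr1 was not tested.

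**Figure D4:**
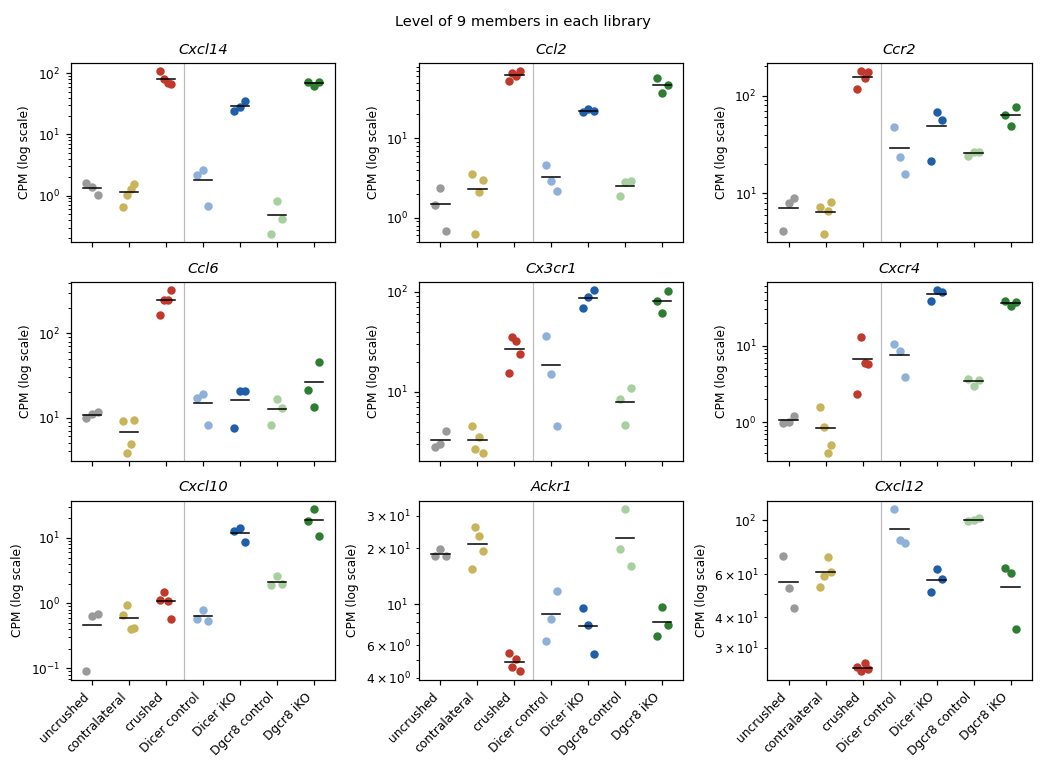
CPM (log axis) of 9 members in each of the 23 libraries, one point per library with a bar at the group mean; the grey line parts the crush from the mutant experiment. Ccl6 and Ccr2 are high in crushed SNs, and Cxcl10 is high in both mutants. Ackr1 and Cxcl12 are lower in crushed than in uncrushed and contralateral SNs, and Dicer controls spread widely for Cx3cr1 (4.59 to 35.9 CPM).

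Since more members were called in Dgcr8 iKO than in Dicer iKO, the difference between the 2 effects was tested in one model of the 12 mutant and control libraries. None of the 27 members tested passed an adjusted p of 0.05 by edgeR, where 2 of 13552 genes (0.0148%) did. An unadjusted p under 0.05 (edgeR) was reached by 4 of the 27 members and by 1861 of the 13552 genes. These shares lay near each other, so the count is no result about the family. Cxcl14 had the smallest adjusted p (difference 3.17 ± 0.56 on the log2 scale, edgeR adjusted p = 0.0997), followed by Ccl2 (1.41 ± 0.36, edgeR adjusted p = 0.155), Cxcr2 (-1.62 ± 0.44, edgeR adjusted p = 0.170) and Ackr1 (-1.28 ± 0.43, edgeR adjusted p = 0.237). DESeq2 called 3 members for this difference, and edgeR called 3 without Dicer control replicate 3. A larger effect in Dgcr8 iKO was therefore not shown for single members by edgeR with all libraries.

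To set injury and miRNA loss side by side, a comparison chosen after the data were seen subtracted each mutant effect from the effect of crush against uncrushed SNs. The 2 experiments used different library kits, so that only the changes within each are set against each other. Of the 18 members that rose in both crush comparisons, 8 also rose in both mutants, 13 rose in Dgcr8 iKO, and 5 (Ccl12, Ccr1, Ccr3, Cx3cl1 and Cxcl1) were called in neither. The matching overlaps over all genes were not counted here, so these overlaps are no result about the family. The paper reports that most genes induced in both mutants were also induced by crush. Against the Dicer effect, 10 of 32 members had a more positive and 4 a more negative response to injury (22.4% and 15.2% of 14784 genes at an adjusted p of 0.05), and against the Dgcr8 effect these were 8 and 6 of 34 members (21.6% and 15.0% of 15042 genes). These shares of members lay near those of all genes, so the counts are no result about the family. Against the Dgcr8 effect the more positive count was 5 without Dgcr8 control replicate 3, and the more negative count was 2 without Dgcr8 control replicate 1, 3 without Dgcr8 control replicate 3 and 10 without Dgcr8 iKO replicate 3.

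Ccl6 rose more after crush than in either mutant, by 4.48 ± 0.49 on the log2 scale against Dicer iKO (edgeR adjusted p = 7.97e-06) and by 3.54 ± 0.51 against Dgcr8 iKO (edgeR adjusted p = 5.26e-05). Ccr2 did so by 3.86 ± 0.59 (edgeR adjusted p = 0.000138) and 3.33 ± 0.31 (edgeR adjusted p = 6.94e-07), and Ccr1 by 4.35 ± 0.70 (edgeR adjusted p = 0.000213) and 3.72 ± 1.03 (edgeR adjusted p = 0.00958). The call of Ccr1 against Dgcr8 iKO was lost without Dgcr8 control replicate 3 (edgeR adjusted p = 0.0742). Ccl2, Ccl7 and Cxcl1 also passed in both, with differences of 2.59, 2.28 and 3.04 against Dicer iKO and 1.204, 2.01 and 2.58 against Dgcr8 iKO. Against Dgcr8 iKO the difference of Ccl2 was 0.65 with contralateral SNs as the control of the crushed SNs (edgeR adjusted p = 0.279), and it was lost without crushed replicate 3, uncrushed replicate 1 or 3 or Dgcr8 control replicate 2 or 3 (edgeR adjusted p from 0.0532 to 0.151). That of Cxcl1 was lost without crushed replicate 2 or 3, uncrushed replicate 1 or 2, Dgcr8 control replicate 2 or 3 or Dgcr8 iKO replicate 1 or 2 (edgeR adjusted p from 0.0518 to 0.153). Ccl8, of the same group as Ccl2 and Ccl7, passed in the opposite direction against Dgcr8 iKO (edgeR adjusted p = 0.0281), with a single read in those controls, and this was lost without Dgcr8 control replicate 1 or 3 or uncrushed replicate 1 or 3 (edgeR adjusted p from 0.0644 to 0.123). Cx3cr1, in contrast, had no difference past the threshold, 0.85 ± 0.70 against Dicer iKO (edgeR adjusted p = 0.369) and -0.19 ± 0.46 against Dgcr8 iKO (edgeR adjusted p = 0.792), and the same held for Cxcl16 and Cxcr4. Cxcl10 rose less after crush than in Dicer iKO, with a difference of -2.76 ± 0.76 (edgeR adjusted p = 0.0106) that was lost without uncrushed replicate 2 (-2.33, edgeR adjusted p = 0.0736) or uncrushed replicate 3 (-2.40, edgeR adjusted p = 0.0520), and its difference from Dgcr8 iKO was -1.70 ± 0.81 (edgeR adjusted p = 0.115). For Cxcl14 the difference was 1.94 ± 0.51 against the Dicer effect (edgeR adjusted p = 0.00820, and 0.0540 without Dicer control replicate 2) and -1.21 ± 0.53 against the Dgcr8 effect, which did not pass the threshold (edgeR adjusted p = 0.0827). Several other members that passed against Dgcr8 iKO, such as Cxcr3, Ccl19 and Ccr3, had no read in its controls, and their fitted differences carry no usable size.

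**Figure D5:**
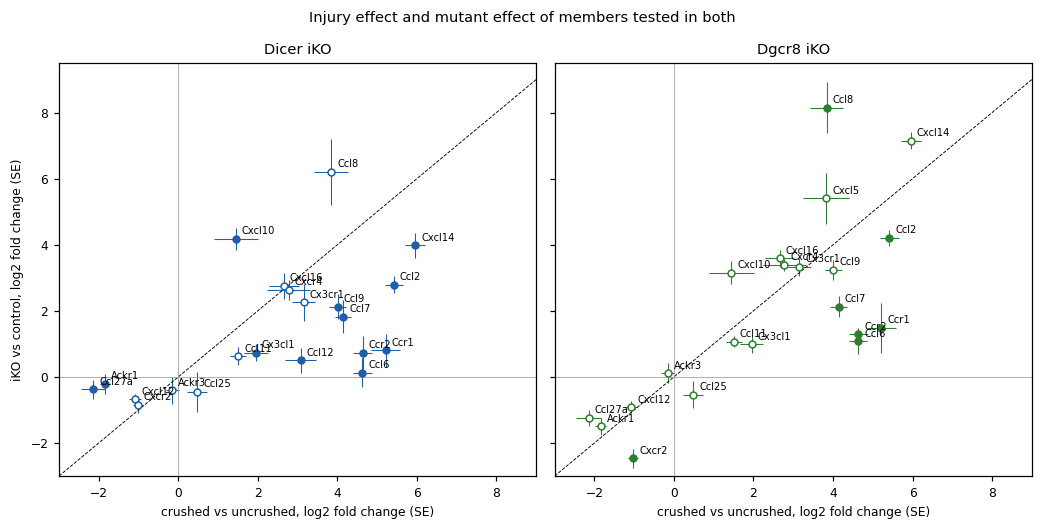
Log2 fold change (whiskers are SE) of crushed against uncrushed SNs (horizontal) and of each mutant against its controls (vertical) for 21 members tested in both, Dicer iKO left and Dgcr8 iKO right; filled points differ between injury and mutant at an adjusted p of 0.05, and the dashed line marks equal effects. Ccl6, Ccr2 and Ccr1 lie far below the line in both panels, and Cxcl10 lies above it in the Dicer panel.

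Genes that act downstream of these receptors were examined as a list of 24 signalling genes, none of which was called between contralateral and uncrushed SNs. Against uncrushed SNs 16 rose and 1 fell, against contralateral SNs 13 rose and 1 fell, and 13 rose with none falling in each mutant. Beside these counts stand the shares of all genes that rose and fell, 15.3% and 21.1% against uncrushed SNs, 14.6% and 13.6% against contralateral SNs, 7.37% and 1.64% in Dicer iKO and 13.4% and 6.99% in Dgcr8 iKO. Dock2, which couples chemokine receptors to Rac in leukocytes, had log2 fold changes of 3.24 after crush against uncrushed SNs, 2.23 in Dicer iKO and 2.39 in Dgcr8 iKO (edgeR adjusted p = 5.92e-09, 0.00389 and 4.07e-06). The gene that fell after crush was the G protein subunit gene Gng2 (-1.42, edgeR adjusted p = 6.65e-08). Rgs1, a brake on receptor signalling in lymphocytes, rose in Dicer iKO (3.40, edgeR adjusted p = 0.00591) and Dgcr8 iKO (4.53, edgeR adjusted p = 6.06e-05). Among 6 related genes outside the naming rule, 2 of 4 tested rose against uncrushed SNs, 2 of 3 against contralateral SNs and 1 of 4 in each mutant, with 0 falling. The platelet chemokine Pf4 rose against uncrushed SNs (1.51, edgeR adjusted p = 0.00257). Ccrl2, a receptor-like protein that binds chemerin, rose in Dicer iKO (2.01, edgeR adjusted p = 0.00499) and Dgcr8 iKO (1.51, edgeR adjusted p = 0.00139).

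Altogether 35 of the 66 members were tested in at least 1 comparison and 28 were called in at least 1 of the 5 comparisons between groups, none of them rising in one comparison and falling in another. The 7 tested but not called in any of these 5 were Ackr3, Ackr4, Ccl24, Ccl25, Ccl28, Ccr9 and Xcr1, of which Ccl28 passed in the difference between injury and Dicer effects and Ccl24 and Xcr1 in that between injury and Dgcr8 effects. Of the 31 members that passed the filter in no comparison, 3 (Ccl26 and the scaffold copies of Ccl19 and Ccl21a) had no read in any of the 23 libraries, which allows up to 0.536 CPM in the shallowest, and the other 28 did not exceed 6.87 CPM in any library. Several family members of lymphocyte and dendritic cell traffic (Ccl21a, Ccl21b, Ccl22, Ccl17, Ccr4 and Ccr8) and the neutrophil receptor Cxcr1 were among these 31. Others of that traffic, such as Ccl19 and Cxcr5, were tested. Near-identical copies of Ccl21, Ccl27 and Ccl19 may share reads, so the split among them, values of Ccl27a and Ccl19 included, is uncertain, and another annotated gene overlaps 13 of the 35 tested members.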

How the data were processed

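RNA of 23 sciatic nerves was sequenced. Per the labels, the submitters' processing notes name Trimmomatic, RSEM and GRCm38, and the study's methods add STAR; the Ensembl release and the use of strand in counting are not given in the sources used here. By the labels, libraries of the crush experiment were made with a SMARTer kit for very small inputs and those of the mutants with a TruSeq kit after ribosomal RNA depletion, whereas the methods name only the latter. The deposited values were estimated counts and FPKM per transcript. Estimated counts were summed per gene and rounded. FPKM was summed per gene for levels, in place of TPM, because 1 short transcript took most of the TPM in the crush libraries. Members and lists were chosen with earlier results of these data known. Genes named are the called members, the leading 3 by level and the 3 nearest to no change. The values of 1 member are not reported here, although it stays in the counts over members.

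Tests used edgeR 4.0.16 (quasi-likelihood, TMM, filterByExpr with a minimum count of 10, Benjamini-Hochberg over all genes) in R, each with its own groups and no block, and were checked on simulated counts. CPM used TMM over all libraries of an experiment. Alternatives were RLE, no filter, DESeq2 1.42.0, all groups in one fit, the replicate block, leaving out each library and, for the differences between injury and mutant effects, contralateral SNs as control (added after the data were seen). All 27 pairs of replicates differed beyond counting noise. By the methods each replicate of a group is a separate mouse. Depth ranged from 5594859 to 12806066 reads.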

Additional observations from a re-analysis of the deposited data

Results flagged for a closer look

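Cxcr5 in crushed replicate 4 measured 1.04 CPM, apart from the other 3 crushed SNs at 0.0916 to 0.241 CPM. It was the 1 such value among 57 groups of 4 libraries examined with Dixon's test, where chance alone gives about 1 in 20 groups. The response to crush differed from the Dicer effect at an edgeR adjusted p of 0.05 for 14 of 32 members. It differed from the Dgcr8 effect for 14 of 34 members, with the differences tested in models over both experiments. Over all genes, 22.4% were more positive and 15.2% more negative against the Dicer effect, and 21.6% and 15.0% against the Dgcr8 effect. The shares of members lay near these, so the counts are no result about the family.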

How the results depend on the processing

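No value of a called member changed direction under any alternative run. All 273 alternative values of the 21 calls against contralateral SNs stayed past both limits, as did 280 of 296 against uncrushed SNs, 98 of 110 in Dicer iKO and 199 of 209 in Dgcr8 iKO. The differences between injury and mutant effects, set up after the data were seen, had 201 of 224 values past the threshold against the Dicer effect and 187 of 222 against the Dgcr8 effect, where 7 of 14 members passed under every alternative run. With contralateral SNs as control, Ccl28 was lost against the Dicer effect and Ccl2, Ccr3 and Xcr1 against the Dgcr8 effect. The cause of the other changes was not tested. With no filter on low counts 25 members rose in Dgcr8 iKO and 1 differed between the mutants, and DESeq2 called 3 for that difference. With the adjusted p alone, 1 member (Cxcl12) fell in Dicer iKO. No filter shifted the median of all genes by 0.23 (log2) against uncrushed and 0.16 against contralateral SNs, and took Cxcl12 to -0.86 and Cxcr2 to -0.79 against uncrushed SNs. Leaving out each library in turn gave 18 to 19 members higher and 3 to 6 lower against uncrushed SNs, 18 to 20 and 3 to 3 against contralateral SNs, 6 to 12 and 0 to 1 in Dicer iKO, and 15 to 19 and 3 to 4 in Dgcr8 iKO. For the difference between the mutants the range was 0 to 3. For injury against the Dicer effect it was 9 to 14 higher and 3 to 5 lower, and against the Dgcr8 effect 5 to 8 higher and 2 to 10 lower. Libraries of the same replicate number did not deviate together, with mean correlations of -0.0101, 0.0481, -0.00279, -0.0774 and -0.0569 in the 5 comparisons, so the numbers were not taken to pair them. Contralateral SNs came from operated mice, but the labels do not say which crushed SN shares a mouse with which contralateral SN. With a replicate block 19 members rose and 7 fell against uncrushed SNs, 18 and 3 against contralateral SNs, 8 and 0 in Dicer iKO (Ccl9 at an edgeR adjusted p of 0.0523 and Cx3cr1 at 0.0790) and 16 and 3 in Dgcr8 iKO (Ccl6 lost at 0.0611), and none were called between contralateral and uncrushed SNs or between the mutants. At these depths members under 0.536 CPM rest on a few reads.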

Other observations

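Cxcl11, a ligand of Cxcr3 that the annotation types as a polymorphic pseudogene and that the naming rule therefore left out, measured 5.31 to 9.91 CPM in uncrushed, 5.72 to 7.07 CPM in contralateral and 0.641 to 1.87 CPM in crushed SNs.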
